A study of Mus musculus with 27 samples.

Results

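Donor monocyte-derived cells of the inflamed small intestine were compared between day 5 and day 1 after transfer, in 9 of the 27 recipient mice of the series. Of these, 4 were manipulated recipients taken on day 5 and 5 were manipulated recipients taken on day 1, chosen by arm and day alone. The cells came from bone marrow of C57BL/6 wild-type mice, as CD11b+Ly6C+ monocytes injected into CCR2-/- recipients, whose own monocytes leave the marrow poorly. For transfers that follow differentiation, the methods of the study name wild-type or CX3CR1gfp/+ donors, without assigning them to samples. All 9 recipients had undergone surgery 1 day before the transfer, under ketamine and xylazine, in which the intestine was flattened with forceps, and Novalgin was in the drinking water of the first days only. Each sample came from a separate mouse, and the mice came from pooled experiments that the labels do not assign. From each recipient 100 donor cells of the lamina propria were sorted as CD11b+CD11c lo/int CD64+ mononuclear phagocytes, a population that the study defines among cells without Ly6G and SiglecF, markers of neutrophils and eosinophils, and that leaves out dendritic cells with high CD11c, and 57 genes of a monocyte and macrophage panel were counted on the NanoString nCounter after pre-amplification. The age and sex of the mice are not given in the sources used here. The question was how the expression of these genes changed over the days in which transferred monocytes develop inside an inflamed gut. Time in the tissue, time since surgery and the end of Novalgin run together between the 2 days compared. Their parts in any change below cannot be told apart.

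Ly6C+ monocytes enter the intestine through CCR2 and mature there into macrophages. On the way they lose Ly6C and the adhesion molecules of blood monocytes, gain MHC class II, and finally express CX3CR1 and scavenger or lectin receptors such as CD206 and CD169. Resident intestinal macrophages make IL-10 and respond weakly to bacterial products, whereas monocytes that have just entered inflamed tissue make IL-6, IL-1 and chemokines. The panel holds genes of both ends of this path.

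The tested genes summed to between 850207 and 1288610 counts in day 5 lanes and between 799142 and 1347007 in day 1 lanes, and every level below is a scaled count, meaning the count of a gene divided by the geometric mean of Actb, Gapdh and Rpl19 of its lane and brought to the mean over all lanes. The spike-in positive controls summed to 20009 to 37955 in day 5 lanes and to 4659 to 19642 in day 1 lanes, with mice 3 and 4 of day 1 the lowest at 4927 and 4659. No scaling by the spike-in controls was made here, and whether the authors' own normalization includes one was not tested. Of the genes that mark monocytes and macrophages, Fcgr1, Csf1r, Adgre1, Cd68, Spi1 and Cd14 were above background in all 9 lanes. So were 55 to 56 of all 57 genes in each day 5 lane and 57 in each day 1 lane. Passing background therefore does not tell cell types apart here. Of 3 genes listed as dendritic cell markers, only Ccr7 was measured, with a median of 2479 in day 5 cells and 1771 in day 1 cells. Carry-over of lymphocytes or epithelium was not tested, since no marker of them was on the panel. In a pool of cells, fewer cells that express a gene and less RNA per cell cannot be told apart.

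Within each day the lanes fell into 2 sets. The raw values of mice 3 and 4 were multiples of 1.333, unlike those of the other mice, and these lanes also stood apart in expression. Over the 57 genes, the Euclidean distance of log2 profiles on day 1 was 4.55 between mice 3 and 4 and 7.31 to 10.84 among mice 1, 2 and 5, but 13.28 to 17.43 across the sets. On day 5 the distances were 7.43 within mice 3 and 4, 12.38 between mice 1 and 2, and 12.42 to 19.11 across the sets. Between the days, lanes lay 15.70 to 17.64 apart within mice 3 and 4 and 19.86 to 21.25 apart within the other mice. Day 5 mouse 1 lay 14.22 and 15.74 from day 1 mice 3 and 4, closer than to day 5 mice 3 and 4 (19.11 and 18.41). Day 5 mouse 2 lay 11.97 and 13.84 from day 1 mice 3 and 4, and 14.02 and 12.42 from day 5 mice 3 and 4. Day 5 mice 3 and 4 lay 23.35 to 26.57 from day 1 mice 1, 2 and 5. What the sets of lanes stand for is not given in the sources used here. With the set as a term in the fit, all 23 calls between the days were kept and Itgax passed in addition, and values within each set stand beside the results.

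In all, 23 of the 57 genes passed the threshold between day 5 and day 1 (40.4%, adjusted p below 0.05, edgeR quasi-likelihood test with Benjamini-Hochberg adjustment), and a gene passed or did not pass in this fit unless another is named. There were 13 genes with higher expression on day 5 (22.8%) and 10 with lower expression (17.5%). The median change over all 57 genes was 0.17 on the log2 scale. For 15 genes the day 5 mice did not overlap the day 1 mice (26.3%), 6 of them higher (10.5%) and 9 lower (15.8%) on day 5, and all 15 were among the 23. The split of calls depended on scaling. With the factor of the authors' own normalization, which ran between 0.805 and 1.55 in day 5 lanes and between 0.407 and 3.12 in day 1 lanes, the median of all genes was -0.72, and 2 genes were higher and 12 lower on day 5. Each called gene kept its sign under that factor. When only the 9 mice were fitted, 11 of the 23 calls were kept, and by the exact permutation test of log2 values 10 were.

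**Figure D1:**
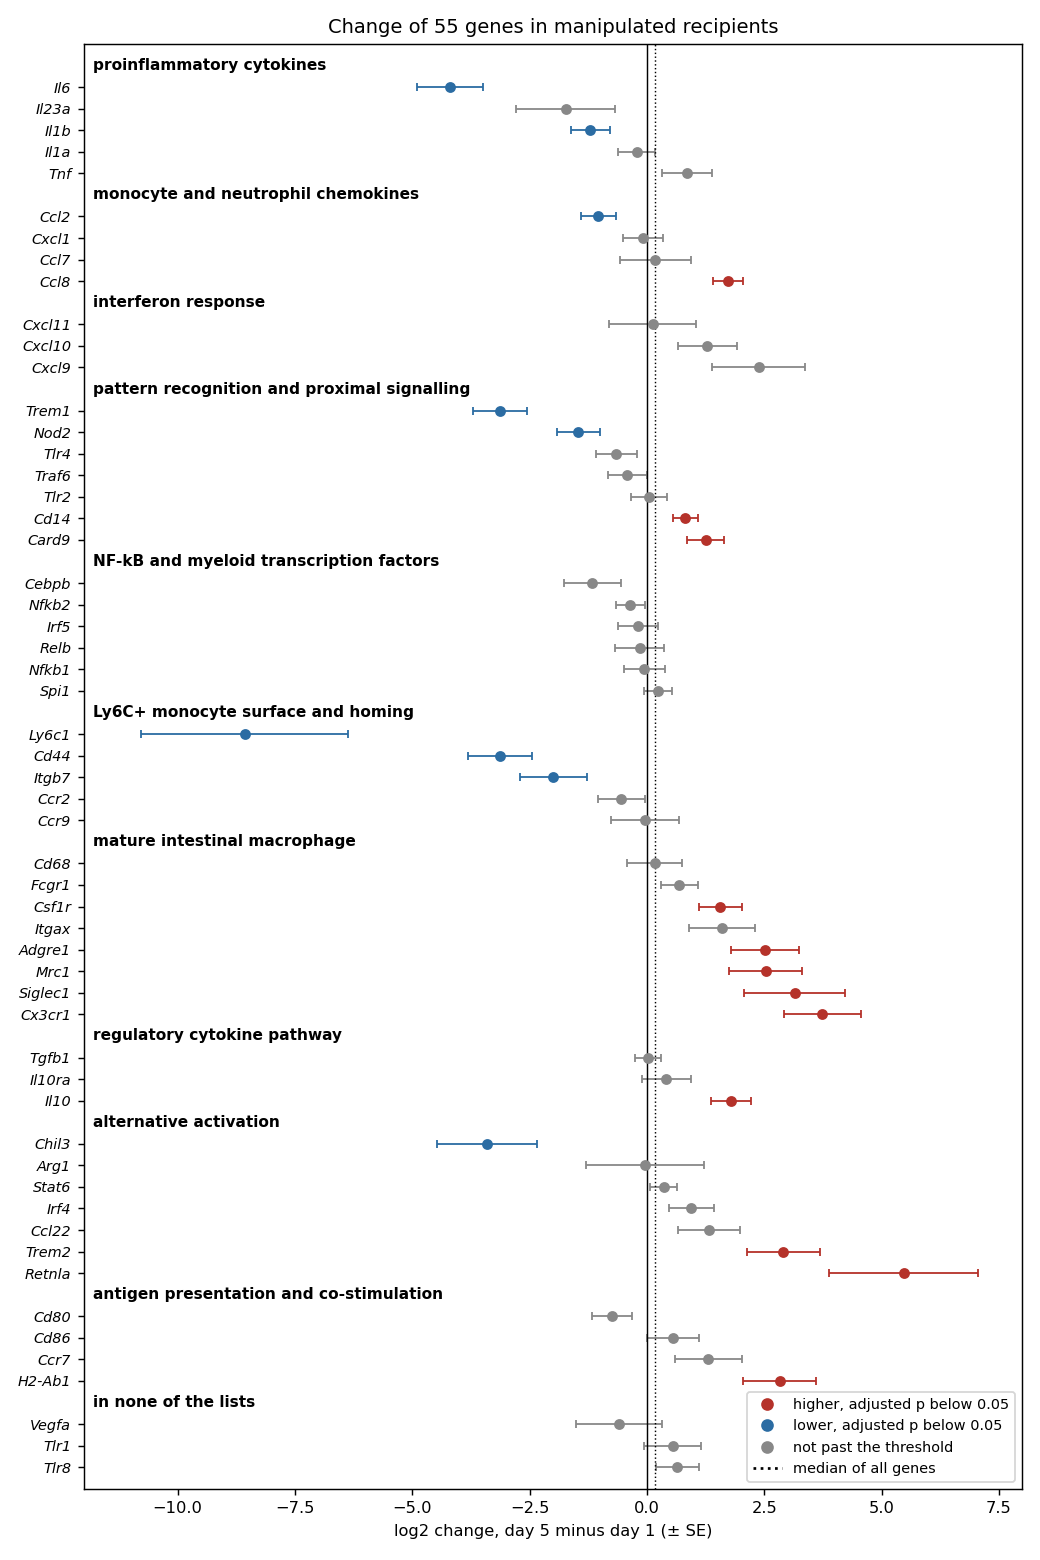
Change of 55 of the 57 genes between the days in manipulated recipients, as log2 change (x axis, day 5 minus day 1) with its SE, from 4 day 5 and 5 day 1 mice, grouped by role. Red points are 12 genes that were higher and blue points 9 that were lower past the threshold, grey points did not pass it, and the dotted line is the median of all genes at 0.17. The 3 called genes of Ly6C+ monocytes lie below 0 and the 5 called genes of mature macrophages above 0.

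Among the proinflammatory cytokines, Il6 and Il1b fell and the other 3 measured genes did not pass the threshold, 2 of 5 lower against 17.5% of all genes. Il6 encodes a cytokine that drives acute-phase and T helper responses. Its scaled counts were 247, 85.3, 49.6 and 30.5 in day 5 mice, against 2809.6, 1293, 452, 1207 and 3714 in day 1 mice. Every day 5 mouse lay below every day 1 mouse, and 1 day 5 lane was not above its background. Il6 changed by -4.20 ± 0.70 on the log2 scale (SE, n = 4 and 5, adjusted p = 0.000176), with -4.37 in mice 3 and 4 and -3.97 in the other mice. With Cd44 and Trem1, it was 1 of 3 genes that passed the threshold under all alternatives and all omissions of 1 mouse.

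The promoter of Il6 is shown because this gene had the smallest adjusted p of the comparison. It runs from 250 bases before the annotated start site to 50 bases from that site on, at chr5:30012864-30013163 on the plus strand of GRCm38.p6, from RefSeq.
Il6: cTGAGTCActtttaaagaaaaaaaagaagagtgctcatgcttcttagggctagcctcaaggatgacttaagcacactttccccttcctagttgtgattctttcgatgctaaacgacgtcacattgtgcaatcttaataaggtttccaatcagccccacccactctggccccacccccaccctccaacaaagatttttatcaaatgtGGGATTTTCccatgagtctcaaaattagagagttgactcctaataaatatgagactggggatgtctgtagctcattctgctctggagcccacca
The capitals mark a match to TGANTCA, the core of AP-1 sites, and a match to GGGANNTTC, a short form of the NF-kB site, which begins 44 bases before the start site. Both strands were searched. Such a NF-kB match stood in 3.94% of all 32851 promoters of this length and an AP-1 match in 7.81%. The table held a promoter of 37 of the 57 genes and of 14 of the 23 that passed the threshold, and of the 8 among these that fell, Il6 alone held either motif.

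Il1b, the precursor of the fever cytokine IL-1 beta, had 14754, 28623, 40212 and 70408 scaled counts in day 5 mice, against 92111, 84216, 71678, 94548 and 102176 in day 1 mice. The groups did not overlap, though day 5 mouse 4 lay just below the lowest day 1 mouse. The change was -1.21 ± 0.42 (adjusted p = 0.0211), with -0.59 in mice 3 and 4 and -2.10 in the other mice. Without day 5 mouse 1 or day 5 mouse 2 the call was lost (adjusted p up to 0.0830). Tnf, which encodes the cytokine TNF, passed the threshold in opposite directions within the sets of lanes, with -0.86 in mice 3 and 4 (adjusted p = 0.0464) and 1.73 in the other mice (adjusted p = 0.0342). Over all mice its change was 0.85 ± 0.52 and did not pass (adjusted p = 0.194). Il1a changed by -0.22 ± 0.39 and Il23a, a subunit of IL-23, by -1.73 ± 1.05, neither past the threshold. The median of the 5 cytokine genes was -1.21, against 0.17 over all genes, but it turned sign between the sets, with -0.87 in mice 3 and 4 and 0.22 in the other mice.

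Genes of the surface and homing of Ly6C+ monocytes gave the lowest median of all lists, -2.0 over 5 genes, with 3 of them lower on day 5 against 17.5% of all genes. Ly6c1, which encodes the Ly6C antigen that defines these monocytes, had 35.1, 45.7, 42.1 and 57.6 scaled counts in day 5 mice, against 47248, 10398, 602, 676 and 27091 in day 1 mice. All day 5 values lay at the level of the negative controls, with 3 of the 4 lanes not above background, so that only a bound can be given. Set against the background of the day 5 lanes as floor, the day 1 mean of 17203 was at least 331-fold higher. The fitted change was -8.57 ± 2.20 (adjusted p = 0.0054). Day 1 mice 3 and 4 already had far less Ly6c1 than the other day 1 mice, and in these lanes alone the change was -3.68 and did not pass the threshold (adjusted p = 0.24), against -9.44 in the other mice. Whether the probe also counts the near-identical Ly6c2 is not given in the sources used here.

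Cd44 encodes the hyaluronan receptor by which leukocytes bind vessel walls and matrix. It had 367, 308, 386 and 966 scaled counts in day 5 mice and 6246, 2471, 2485, 4101 and 6847 in day 1 mice, without overlap. The change was -3.13 ± 0.69 (adjusted p = 0.00135), with -2.28 in mice 3 and 4 and -3.94 in the other mice, and both passed the threshold within their set.

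Itgb7, the beta7 chain of the gut-homing integrin, was split between the sets of lanes on day 5, with 3068, 4234, 145 and 224 scaled counts in day 5 mice and 5090.5, 7491, 6646, 4084 and 14956 in day 1 mice. Day 5 mouse 2 exceeded 1 day 1 mouse, and the change was -2.0 ± 0.72 (adjusted p = 0.0248), with -4.86 in mice 3 and 4 and -1.33 in the other mice. The Itgb7 call was lost without day 1 mouse 5, day 5 mouse 3 or day 5 mouse 4 (adjusted p up to 0.0874).

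The chemokine receptor genes of this list did not pass the threshold. Ccr2, the receptor for CCL2, had 8756, 11127, 15852 and 20229 scaled counts in day 5 mice and 17652, 4899, 38699, 34876 and 6354 in day 1 mice. The groups overlapped widely, and on day 1, mice 3 and 4 stood highest. The change of Ccr2 was -0.55 ± 0.50 (adjusted p = 0.408), with -1.03 in mice 3 and 4, past the threshold there, and 0.05 in the other mice. Ccr9, a receptor for the gut chemokine CCL25, stayed between 76.9 and 265 scaled counts in the 9 mice and changed by -0.04 ± 0.73.

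**Figure D2:**
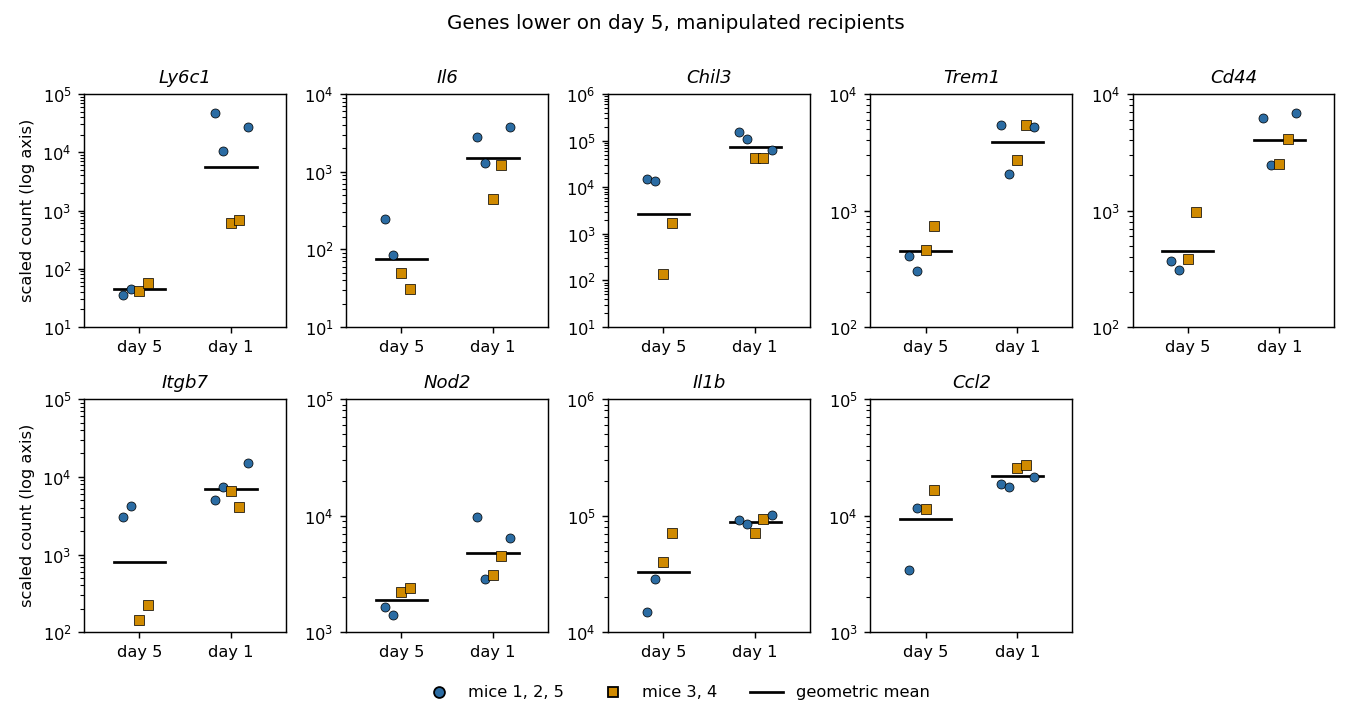
Scaled counts (log axis) of 9 of the 10 genes that were lower on day 5 in manipulated recipients, for each mouse of day 5 and day 1. Orange squares are mice 3 and 4, blue circles are mice 1, 2 and 5, and bars are geometric means. Ly6c1 is at 35.1 to 57.6 in all day 5 mice, while Itgb7 separates mice 3 and 4 from mice 1 and 2 on day 5.

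Of 8 measured genes of mature macrophages 5 were higher on day 5, against 22.8% of all genes, and the median change of the 8 was 2.05 against 0.17 over all genes. The list had a median of 2.04 in mice 3 and 4 and of 1.94 in the other mice, where 5 and 3 of its genes passed the threshold. Under the authors' factor its median was 1.01 against -0.72 over all genes, and of the 5 calls only that of Cx3cr1 remained. It was also the only 1 of the 5 that remained when only the 9 mice were fitted, and none of the 5 passed by the exact permutation test (adjusted p from 0.106 for Cx3cr1 to 0.275 for Csf1r, two-sided).

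Cx3cr1 encodes the fractalkine receptor, the hallmark of resident intestinal macrophages. Its scaled counts were 108, 656, 1854 and 3365 in day 5 mice, against 179.9, 47.5, 128, 137 and 68.1 in day 1 mice. Day 5 mouse 1 lay inside the day 1 range and the other day 5 mice above it. The change was 3.74 ± 0.81 (adjusted p = 0.00135), with 4.30 in mice 3 and 4 and 1.95 in the other mice, which did not pass the threshold alone (adjusted p = 0.17).

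Siglec1, the gene of the sialic acid receptor CD169, had 6233, 16381, 23089.6 and 23496 scaled counts in day 5 mice, against 58.8, 83.8, 2873, 6682 and 51.9 in day 1 mice. On day 1, mice 1, 2 and 5 were near background while mice 3 and 4 already held far more, and mouse 4 exceeded the lowest day 5 mouse. Siglec1 changed by 3.15 ± 1.07 (adjusted p = 0.0202), by 2.29 in mice 3 and 4 and by 7.45 in the other mice, past the threshold in both sets.

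Mrc1, which encodes the mannose receptor CD206, showed the same order of lanes. It had 252, 559, 2014 and 3452 scaled counts in day 5 mice and 73.1, 69.0, 561, 603 and 57.3 in day 1 mice. The overlap came from day 1 mice 3 and 4, and within the sets of lanes the change was 2.23 in mice 3 and 4 and 2.61 in the other mice, both past the threshold. Over all mice it was 2.53 ± 0.77 (adjusted p = 0.0129), and it was lost without day 5 mouse 4 (adjusted p = 0.0705).

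Adgre1, the gene of the macrophage antigen F4/80, had 725, 2248, 6164 and 9352 scaled counts in day 5 mice, against 467, 112, 1167, 1713 and 596 in day 1 mice. Only day 5 mouse 1 lay within the day 1 range. The change was 2.51 ± 0.73 (adjusted p = 0.0105), with 2.43 in mice 3 and 4 and 1.92 in the other mice. Csf1r, the receptor for the macrophage growth factor CSF1, had 9424, 25874, 54062 and 73132 in day 5 mice and 16168, 4014, 15911, 19260.1 and 13457 in day 1 mice. Again day 5 mouse 1 fell within the day 1 range, and the change was 1.56 ± 0.46 (adjusted p = 0.0118), with 1.85 in mice 3 and 4 and 0.65 in the other mice. The Csf1r call was lost without day 5 mouse 4 (adjusted p = 0.0688).

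The remaining genes of this list did not pass the threshold. Itgax, the gene of CD11c, changed by 1.59 ± 0.70 (adjusted p = 0.073), but it passed in DESeq2 (adjusted p = 0.042), in limma (adjusted p = 0.0317) and with the set of lanes as a term (adjusted p = 0.031). With it, 6 genes of the list passed in each of DESeq2 and limma. Fcgr1, which encodes the CD64 of the sort gate, changed by 0.69 ± 0.40 and the lysosomal marker gene Cd68 by 0.17 ± 0.59. Day 5 mouse 1 had the lowest level among day 5 mice of Cx3cr1, Siglec1, Mrc1, Adgre1, Csf1r, Fcgr1 and Cd68.

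**Figure D3:**
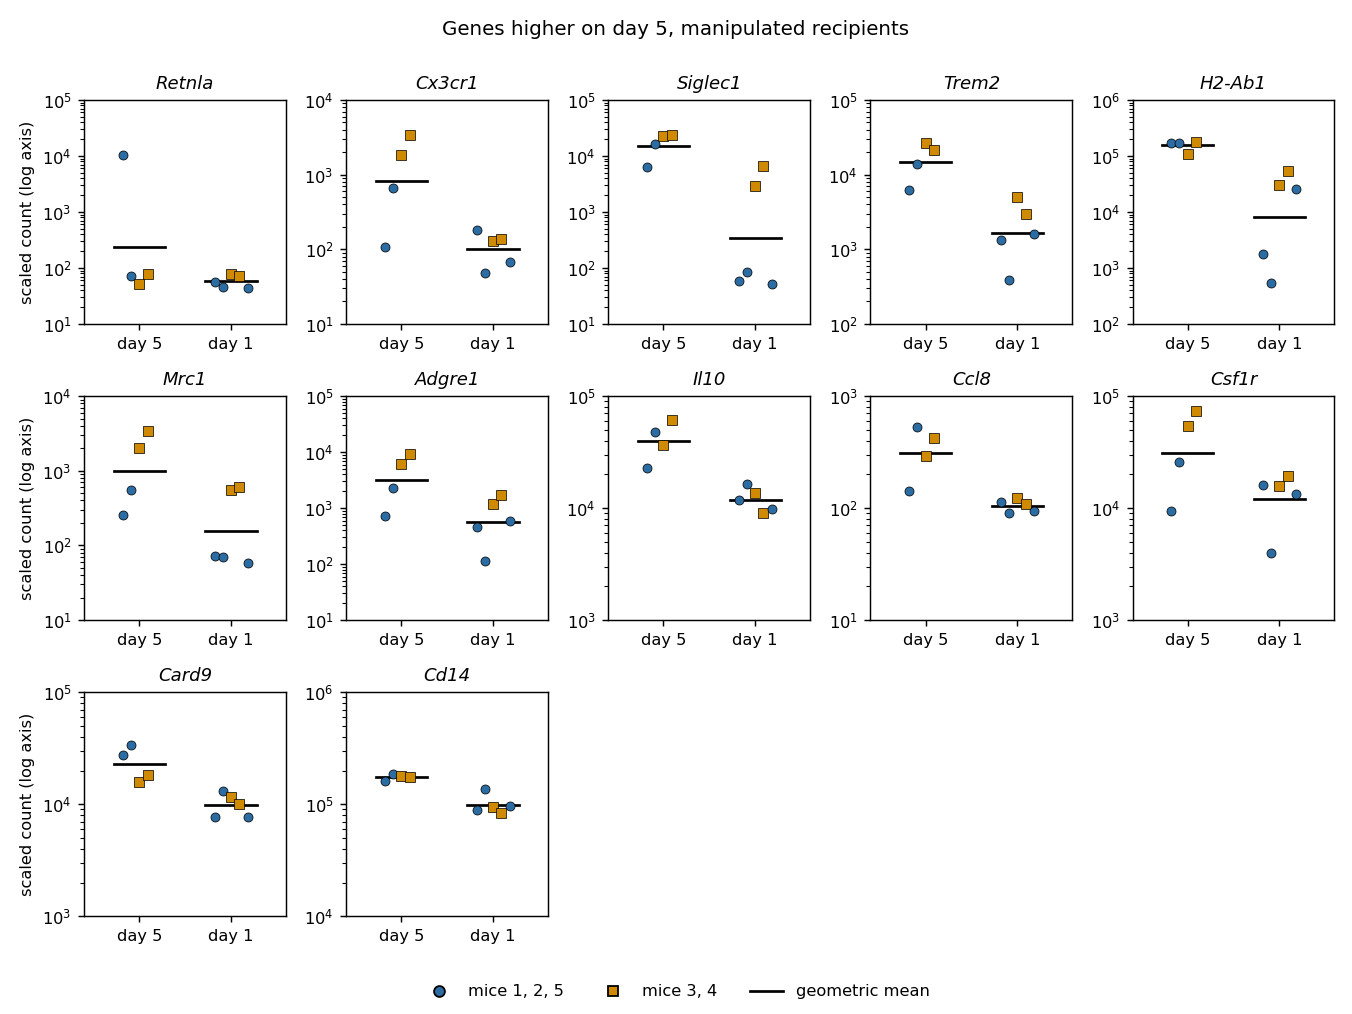
Scaled counts (log axis) of 12 of the 13 genes that were higher on day 5 in manipulated recipients, for each mouse of day 5 and day 1, with symbols as for the lower genes and bars at the geometric means. Trem2, H2-Ab1, Il10, Ccl8, Card9 and Cd14 do not overlap between days, whereas Retnla is high in day 5 mouse 1 alone (10423).

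Of 7 measured pattern recognition genes 4 were called, against 40.4% of all genes. Trem1 and Nod2 fell, Cd14 and Card9 rose, and Tlr2, Tlr4 and Traf6 did not pass the threshold. Trem1 encodes a receptor that amplifies inflammatory signals of neutrophils and monocytes. It had 405, 303, 455 and 738 scaled counts in day 5 mice, against 5401, 2066, 2713, 5460.2 and 5250.1 in day 1 mice. The highest day 5 mouse was far under the lowest day 1 mouse, and the change was -3.14 ± 0.58 (adjusted p = 0.000268), with -2.78 in mice 3 and 4 and -3.58 in the other mice.

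Trem2, a lipid-sensing receptor of the same family with roles in phagocytosis, moved the other way. It had 6223, 13798, 26424 and 21579 scaled counts in day 5 mice, against 1351, 388, 5036, 2926 and 1626 in day 1 mice, without overlap. The change was 2.91 ± 0.77 (adjusted p = 0.00628), with 2.59 in mice 3 and 4 and 3.16 in the other mice, both past the threshold, and it was lost under the authors' factor.

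Trem1 and Trem2 lie in one cluster on chromosome 17, with 4 protein-coding genes between them in RefSeq. Their promoters are shown because these neighbours changed in opposite directions. They are at chr17:48232489-48232788 and at chr17:48346151-48346450, both on the plus strand of GRCm38.p6.
Trem1: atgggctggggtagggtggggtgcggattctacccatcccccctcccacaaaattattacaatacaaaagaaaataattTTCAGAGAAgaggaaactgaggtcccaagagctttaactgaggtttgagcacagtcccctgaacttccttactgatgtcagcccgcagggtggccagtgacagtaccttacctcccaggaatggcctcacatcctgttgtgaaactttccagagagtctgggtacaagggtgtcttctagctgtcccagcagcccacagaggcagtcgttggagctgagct
Trem2: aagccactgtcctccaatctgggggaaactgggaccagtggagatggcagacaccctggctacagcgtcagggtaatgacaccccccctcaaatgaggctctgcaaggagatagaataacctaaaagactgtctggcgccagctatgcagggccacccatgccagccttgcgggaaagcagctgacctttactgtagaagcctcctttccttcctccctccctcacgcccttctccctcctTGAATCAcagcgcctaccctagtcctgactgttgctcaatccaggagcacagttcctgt
In Trem1 the capitals mark a match to TTCNNNGAA, the form of STAT sites, which 8.3% of all promoters held, and in Trem2 a match to TGANTCA. Neither held the NF-kB form. Of the genes with a promoter in the table, the STAT form stood in Chil3 and Trem1 among the 8 that fell, in 0 of the 6 that rose and in 4 of the 23 that were not called. Of those 23, 6 held the NF-kB form and 7 the AP-1 form.

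Nod2, a cytosolic sensor of bacterial wall peptides, had 1642, 1410.4, 2228 and 2409 scaled counts in day 5 mice and 9654, 2859, 3088, 4466 and 6476 in day 1 mice, without overlap. It changed by -1.47 ± 0.46 (adjusted p = 0.0136), with -0.70 in mice 3 and 4 and -2.05 in the other mice, and the call was lost without day 1 mouse 1 (adjusted p = 0.0502). Card9, an adaptor of fungal and bacterial sensing, had 27295, 34069, 15868 and 18147 in day 5 mice and 7625, 13247, 11530.5, 9986 and 7635 in day 1 mice. These groups did not overlap either, and the change was 1.25 ± 0.39 (adjusted p = 0.0136), with 0.66 in mice 3 and 4 and 1.69 in the other mice. The Card9 call was lost without day 5 mouse 2 (adjusted p = 0.0538) and under the authors' factor.

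Cd14, the co-receptor for lipopolysaccharide, had 162527, 184985, 177578 and 176185 scaled counts in day 5 mice, against 89255, 136595, 95057, 83347 and 95533 in day 1 mice. The groups did not overlap, and the change of 0.81 ± 0.27 (adjusted p = 0.0172) was the smallest that passed. It was 0.99 in mice 3 and 4 and 0.70 in the other mice, and it was lost under all 5 other scalings. Among the receptors that signal with it, Tlr4 changed by -0.65 ± 0.44, with 0.83 in mice 3 and 4 and -1.41 in the other mice, and Tlr2 by 0.05 ± 0.39. Levels of Tlr2 were low, at 35.1 to 163 scaled counts over the mice of both days, which limits what its value can show. The adaptor gene Traf6 changed by -0.42 ± 0.41.

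Among 7 genes linked to alternative activation by IL-4 and IL-13, 2 were higher, 1 was lower and 4 did not pass the threshold, a share of calls near that of all genes (40.4%). Chil3, the chitinase-like protein Ym1, which is also abundant in Ly6C+ monocytes, fell. It had 15206, 13788, 139.6 and 1693 scaled counts in day 5 mice, against 151608, 109965, 42553, 41827 and 62302 in day 1 mice. No day 5 mouse reached the day 1 range, and day 5 mice 3 and 4 were again far below mice 1 and 2. Chil3 changed by -3.41 ± 1.06 (adjusted p = 0.0136), with -5.52 in mice 3 and 4 and -2.90 in the other mice.

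Retnla, which encodes the secreted protein RELM alpha, passed the threshold through 1 animal. Its scaled counts were 10423, 72.1, 51.5 and 79.4 in day 5 mice and 56.3, 46.4, 79.2, 73.3 and 44.1 in day 1 mice. The fitted change of 5.47 ± 1.59 (adjusted p = 0.0105) became 0.18 without day 5 mouse 1 (adjusted p = 0.964) and -0.22 in mice 3 and 4. Arg1, the arginine-degrading enzyme arginase 1, did not pass. It had 77773, 116859.7, 44068 and 37682 in day 5 mice and 13417, 5802, 204815, 124730.2 and 4715 in day 1 mice. The high day 1 values were those of mice 3 and 4, and the change was -0.03 ± 1.26 in all (adjusted p = 0.979), -2.01 in mice 3 and 4 and 3.61 in the other mice. On means of log2 values, which give the high lanes less weight, the Arg1 difference was 1.33. Ccl22, a chemokine gene of IL-4-treated macrophages and dendritic cells, changed by 1.32 ± 0.65, Irf4, a transcription factor of this programme, by 0.94 ± 0.47 and Stat6, the signal transducer of IL-4, by 0.35 ± 0.29. None of these 3 passed the threshold.

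Il10 and H2-Ab1 rose without overlap between the days. Il10, the gene of the cytokine that restrains intestinal macrophages, had 22659, 47974, 36532 and 61069.9 scaled counts in day 5 mice, against 11875, 16468, 13663, 9127 and 9869 in day 1 mice. The lowest day 5 mouse was mouse 1, above all day 1 mice, and the change was 1.79 ± 0.43 (adjusted p = 0.0032), with 2.10 in mice 3 and 4 and 1.47 in the other mice. The receptor gene Il10ra changed by 0.41 ± 0.52 and Tgfb1, the gene of the cytokine TGF-beta 1, by 0.02 ± 0.28, neither past the threshold. The Il10 call was lost under the authors' factor.

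H2-Ab1, the beta chain of MHC class II, had 170899, 172391, 109924 and 181031 scaled counts in day 5 mice, against 1752, 533, 30566, 53256 and 25475 in day 1 mice. Day 1 mice spread over 2 orders of magnitude while day 5 mice were close to each other. The change was 2.83 ± 0.78 (adjusted p = 0.00774), with 1.80 in mice 3 and 4 and 4.21 in the other mice, both past the threshold, and was lost under the authors' factor. The co-stimulatory genes Cd80 and Cd86 changed by -0.75 ± 0.43 and 0.56 ± 0.55 and the migration receptor gene Ccr7 by 1.31 ± 0.71, none of them past the threshold. Ccr7 was highest in day 5 mouse 1, at 11348 against 921 to 3401 in the other 8 mice.

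Of 4 chemokine genes for monocytes and neutrophils, 1 rose and 1 fell, a share of calls near that of all genes (40.4%). Ccl8, an attractant of monocytes and T cells made by CD169+ macrophages of the gut, had 142, 533, 294 and 426 scaled counts in day 5 mice, against 113, 90.5, 122, 108 and 94.4 in day 1 mice. All day 5 mice lay above all day 1 mice, though levels were low. The change was 1.72 ± 0.31 (adjusted p = 0.000268), with 1.64 in mice 3 and 4 and 1.77 in the other mice, both past the threshold, and it was lost under the authors' factor.

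Ccl2, the main ligand of CCR2, had 3408, 11546, 11524 and 16692 scaled counts in day 5 mice and 18626, 17729, 25618, 27096 and 21621 in day 1 mice. There was no overlap, and the change was -1.04 ± 0.37 (adjusted p = 0.0248), with -0.90 in mice 3 and 4 and -1.37 in the other mice. It was lost without day 1 mouse 3, day 1 mouse 4 or day 5 mouse 1 (adjusted p up to 0.0830). Ccl2, Ccl7 and Ccl8 lie in one run of chemokine genes on chromosome 11, with 3 protein-coding genes between Ccl2 and Ccl8. Ccl7, next to Ccl2 and also a CCR2 ligand, changed by 0.18 ± 0.75, with 2646 scaled counts in day 5 mouse 1 and 21150.3 to 26728 in the other day 5 mice. Cxcl1, an attractant of neutrophils, changed by -0.09 ± 0.43.

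The interferon-induced chemokine genes Cxcl9, Cxcl10 and Cxcl11 changed by 2.38 ± 1.00 (adjusted p = 0.0605), 1.28 ± 0.63 and 0.12 ± 0.93, none past the threshold in the edgeR fit. Cxcl9 passed in DESeq2 (adjusted p = 0.019), when only the 9 mice were fitted (0.0386), with background subtracted (0.0442) and without day 5 mouse 3 (0.0341), and Cxcl10 passed without that mouse (0.0281) and within mice other than 3 and 4. Their median was 1.28. Day 5 mouse 3 was the lowest of day 5 for Cxcl10, at 4851 against 29141 to 80099 in the other day 5 mice. Levels of Cxcl11 were low, at 39.6 to 521 scaled counts over the mice of both days, and 1 day 5 lane was not above its background.

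Of the 6 genes of NF-kB subunits and myeloid transcription factors 0 passed the threshold in edgeR (0 at an unadjusted p below 0.05), 0 in DESeq2 and 1 in limma, and their median was -0.17. The gene was Cebpb, which also passed in edgeR with DESeq2 size factors (-1.43, adjusted p = 0.0301), without Rpl19 in the scaling (-1.44, adjusted p = 0.0447), with the authors' factor (-1.92, adjusted p = 0.0479) and without day 5 mouse 4 (-1.73, adjusted p = 0.0465). Cebpb, a factor of monocyte development, had the largest value, -1.16 ± 0.61 (adjusted p = 0.135), with -0.25 in mice 3 and 4 and -2.88 in the other mice, past the threshold there. Nfkb1, Nfkb2 and Relb, subunits of NF-kB, changed by -0.06 ± 0.43, -0.35 ± 0.31 and -0.16 ± 0.53, Irf5 by -0.19 ± 0.43 and Spi1, the macrophage factor PU.1, by 0.24 ± 0.30. Of the 3 genes outside the lists, Vegfa, a growth factor for vessels, changed by -0.60 ± 0.91, and the sensors Tlr1 and Tlr8 by 0.55 ± 0.61 and 0.65 ± 0.47, none past the threshold.

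The sets of lanes gave the same sign for 22 of the 23 called genes, with Retnla as the exception. The calls rest on these same 9 mice, so a shared sign is favoured by the call itself and is no independent repeat. Within mice 3 and 4 alone 19 genes passed the threshold (33.3%, 2 mice each day), and within the other mice 17 did (29.8%, 2 day 5 and 3 day 1 mice). Among the 23, those that passed in both sets were Ccl8, Cd44, Chil3, H2-Ab1, Il6, Mrc1, Siglec1, Trem1 and Trem2, 9 in all. Of the 34 genes that were not called, 22 had opposite signs in the sets. The size of the change also differed between the sets, although this difference was not tested. Siglec1, H2-Ab1 and Ly6c1 had larger values in the other mice, and Itgb7, Chil3 and Cx3cr1 in mice 3 and 4.

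**Figure D4:**
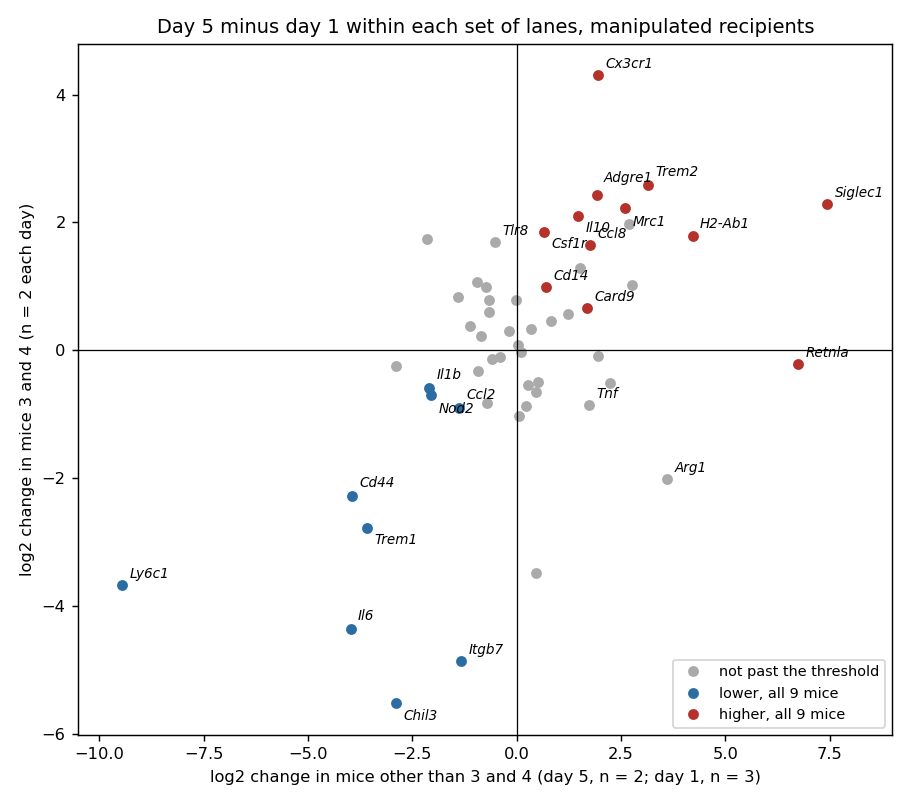
Log2 change from day 1 to day 5 within mice 3 and 4 (y axis, 2 mice each day) against the change within the other mice (x axis, 2 day 5 and 3 day 1 mice), 1 point for each of 55 genes. Called genes (red higher, blue lower over all 9 mice) lie in the upper right and lower left except Retnla, while Arg1 and Tnf have opposite signs in the sets.

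Cells of day 2 stood between the days for most called genes. For 21 of the 23 the geometric mean of the 4 manipulated day 2 mice lay between those of day 5 and day 1, as it did for 30 of all 57 genes, and the exceptions were Cd14 and Retnla. The 30 include the 21. Called genes were selected for a gap between day 5 and day 1, which by itself makes a value inside the gap likelier, so no intermediate stage follows from this count.

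To see where the inflamed gut differed from one without surgery, the change from day 1 to day 5 was compared with that in non-manipulated recipients (4 day 5 and 5 day 1 mice). In non-manipulated recipients 11 genes passed the threshold (19.3%), 6 higher and 5 lower on day 5. The change itself differed between the arms for 11 genes (19.3%), 7 with a more positive and 4 with a more negative change in manipulated recipients. Trem1 and Cd14 passed in both arms with the same sign. In non-manipulated recipients Trem1 changed by -1.59 ± 0.54 and Cd14 by 0.76 ± 0.27 (adjusted p = 0.0457 each). The difference between the arms did not pass for Trem1 (-1.55 ± 0.74, adjusted p = 0.159) or Cd14 (0.05 ± 0.38). For Trem1 it passed within the mice other than 3 and 4 (-3.36).

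Il6 stood near background in non-manipulated recipients on both days. Its change was -4.20 ± 0.70 in manipulated and -0.14 ± 0.61 in non-manipulated recipients, where all 9 mice had 26.8 to 70.5 scaled counts, and the difference was -4.06 ± 0.88 (adjusted p = 0.00396). Ccl7 changed by 0.18 ± 0.75 in manipulated and by 5.08 ± 0.86 in non-manipulated recipients, with 792 to 9979 scaled counts in non-manipulated day 5 mice against 58.2 to 361 in non-manipulated day 1 mice. The difference was -4.90 ± 1.13 (adjusted p = 0.00396), and -4.94 within the mice other than 3 and 4, where it did not pass. Cd80 changed by -0.75 ± 0.43 in manipulated and 1.51 ± 0.43 in non-manipulated recipients, a difference of -2.25 ± 0.61 (adjusted p = 0.0112) that was lost within mice 3 and 4 (-0.98).

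Cx3cr1, Trem2 and Csf1r rose in manipulated recipients and had negative values that did not pass the threshold in the other arm. The Cx3cr1 change was 3.74 ± 0.81 in manipulated and -0.96 ± 0.77 in non-manipulated recipients, a difference of 4.70 ± 1.13 (adjusted p = 0.00458) that was lost within the mice other than 3 and 4 (2.58). The arms differed mainly on day 1. Geometric means of Cx3cr1 were 100 on day 1 and 816 on day 5 in manipulated recipients, against 1093 and 706 in non-manipulated recipients. For Trem2 the changes were 2.91 ± 0.77 in manipulated and -1.0 ± 0.76 in non-manipulated recipients, a difference of 3.91 ± 1.09 (adjusted p = 0.0112) that was lost with the authors' factor and within the mice other than 3 and 4 (3.40). Geometric means of Trem2 were 1659 on day 1 and 14875 on day 5 in manipulated recipients, against 1974 and 1288 in non-manipulated recipients. Csf1r changed by 1.56 ± 0.46 in manipulated and -0.32 ± 0.46 in non-manipulated recipients, and its difference of 1.88 ± 0.66 was close to the threshold (adjusted p = 0.0476) and was lost on omission of any of 13 of the 18 mice, taken singly. Geometric means of Csf1r were 12176 on day 1 and 31335 on day 5 in manipulated recipients, against 28259 and 23186 in non-manipulated recipients.

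Chil3 fell in both arms and further in non-manipulated recipients. Chil3 changed by -3.41 ± 1.06 in manipulated and -7.29 ± 1.29 in non-manipulated recipients, with a difference of 3.89 ± 1.38 (adjusted p = 0.0476) that was lost on 13 of the 18 single omissions. For Ly6c1 the difference of -6.67 ± 2.36 (adjusted p = 0.0476) rested on non-manipulated day 5 mouse 3, which had 10359 scaled counts against at most 113 in the other 3 mice of that group. Without that mouse it was -1.10 (adjusted p = 0.699). The Retnla difference of 10.28 ± 2.35 (adjusted p = 0.00396) rested on manipulated day 5 mouse 1 and non-manipulated day 1 mouse 4, which had 6007 scaled counts against 30.5 to 55.9 in the other mice of its group.

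The difference for Siglec1 did not pass the threshold, at 3.17 ± 1.48 (adjusted p = 0.152), and neither did those for H2-Ab1 (0.77 ± 1.06), Mrc1 (0.69 ± 1.07) and Il10 (-0.86 ± 0.60). In non-manipulated recipients Il10 changed by 2.64 ± 0.44, past the threshold, H2-Ab1 by 2.06 ± 0.76 (adjusted p = 0.0556), Mrc1 by 1.83 ± 0.76 (adjusted p = 0.0756) and Siglec1 by -0.02 ± 1.02 (adjusted p = 0.986). The Siglec1 value includes non-manipulated day 1 mouse 5, at 22975 scaled counts against 1809 to 4546 in the other mice of its group. Non-manipulated day 5 mice had 3520 to 9494. Geometric means, which give that high lane less weight, were 4298 on day 1 and 6493 on day 5. The flat fitted value therefore does not show that Siglec1 stayed level in this arm.

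**Figure D5:**
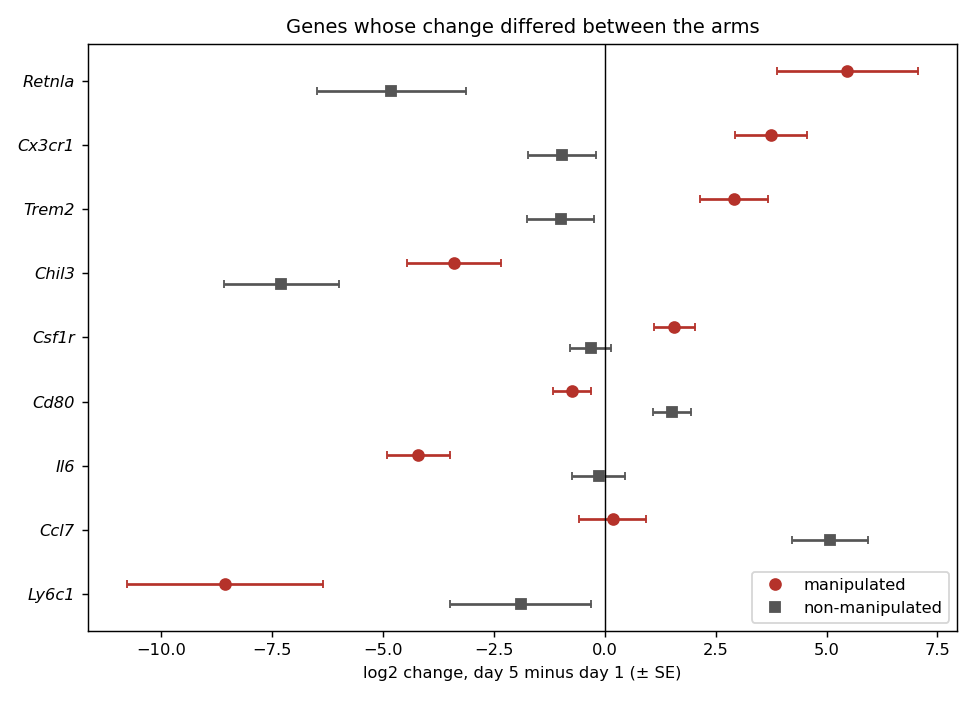
Log2 change from day 1 to day 5 (x axis, day 5 minus day 1, with SE) in manipulated (red circles) and non-manipulated (grey squares) recipients, for 9 of the 11 genes whose change differed between the arms. Cx3cr1, Trem2 and Csf1r are above 0 in manipulated recipients only, and Il6 is far below 0 in manipulated recipients only.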

How the data were processed

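The raw table held, as deposited by the authors, barcode counts of 15 lanes without normalization, those of manipulated day 1 mouse 5 all even and read as counts times 2. For 12 lanes (mice 3 and 4 of each group), the unit deposited by the authors was that of estimated or expected counts: every value was a multiple of 1.333 (tolerance 0.001), which was divided out. The reason for these steps is not given in the sources used here. A second table held a score normalized to housekeeping genes by the authors, used as an alternative only. The authors had left 10 of 67 genes blank, and 57 were tested. The results of 2 of these are not reported here; they count among all genes but in no list or figure. Before counting, cDNA was amplified for 16 cycles, which can alter ratios.

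Counts were fitted by quasi-likelihood in edgeR 4.0.16 (R 4.3.3, two-sided tests), with the geometric mean of Actb, Gapdh and Rpl19 as library size (18254.5 to 31068.7 in day 5 and 20655.8 to 37600 in day 1 lanes of manipulated recipients). All 27 samples entered 1 model with 6 group means (21 degrees of freedom left; common coefficient of variation between mice 0.685). Calls used 0.05 after Benjamini-Hochberg adjustment over the 57 genes, and SE was the log2 change over the root of F. Background was the mean plus 2 SD of the 5 negative controls of a lane. Scaled counts were brought to a mean housekeeping level of 29098.5. Names followed probe accessions (69 of 72, 3 otherwise), with Emr1 given as Adgre1. Alternatives were other scalings, DESeq2 1.42.0, limma 3.58.1 on log2(scaled count + 1), an exact permutation test, fits on subsets of lanes, other treatments of background, blocks and omission of single mice. All genes may be named, with values per mouse for those past the threshold, those whose days do not overlap, and Siglec1, Mrc1, Arg1, H2-Ab1, Ly6c1, Ccr2 and Cx3cr1. Lists follow textbook roles. The samples, lists and tests were chosen with earlier results of these data known. The scripts were tested on simulated data. Promoters came from RefSeq (GRCm38.p6).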

Additional observations from a re-analysis of the deposited data

Results flagged for a closer look

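Of 114 groups of values examined (57 genes on 2 days), 7 held 1 mouse far from the others of its day, where chance gives about 1 in 20. On day 5, mouse 1 had 2646.1 scaled counts of Ccl7 against 21150.3 to 26727.8 in the other mice and 10423.4 of Retnla against 51.5 to 79.4, and mouse 3 had 109924.1 of H2-Ab1 against 170898.6 to 181031.1. On day 1, mouse 2 had 136595.2 of Cd14 against 83347.4 to 95532.8, 4013.5 of Csf1r against 13457.3 to 19260.1 and 35.1 of Tlr2 against 105.9 to 144.5. Mouse 1 of day 1 had 264.7 of Ccr9 against 104.5 to 133.6.

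The change from day 1 to day 5 differed between manipulated and non-manipulated recipients for 11 genes, 9 of them given here, by the interaction term of the edgeR fit. The difference in log2 change was 10.28 for Retnla, 4.70 for Cx3cr1, 3.91 for Trem2, 3.89 for Chil3 and 1.88 for Csf1r. It was -6.67 for Ly6c1, -4.90 for Ccl7, -4.06 for Il6 and -2.25 for Cd80. Under the alternatives and single omissions run, Il6 alone passed the threshold each time.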

How the results depend on the processing

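Il6, Cd44 and Trem1 passed the threshold in all 16 alternatives and in all 9 omissions of 1 mouse, and the other 20 called genes lost it in at least 1. The count of genes higher on day 5 (13) became 2 with the authors' factor, 3 by the exact permutation test of the 9 mice (126 splits, smallest possible p 0.00794) and 8 when only these 9 samples were fitted, and the count of lower genes (10) became 4 in that last fit, which has fewer samples to estimate the spread. The permutation test dropped, among others, Cd14, Csf1r, Cx3cr1, Adgre1, H2-Ab1, Itgb7, Ly6c1, Mrc1, Nod2, Retnla, Siglec1 and Trem2, and the fit of 9 samples Ccl2, Chil3, Csf1r, Adgre1, H2-Ab1, Il1b, Itgb7, Mrc1, Nod2 and Siglec1. Genes not called that passed in some alternative or omission were Ccl22, Ccr2, Cd80, Cebpb, Cxcl9, Cxcl10, Fcgr1, Il23a, Itgax, Tlr8 and Tnf. The count of genes whose change differed between the arms (11) became 6 with the authors' factor and 7 with limma. Omitting 1 mouse gave 11 to 15 higher and 8 to 10 lower genes, and 8 to 11 differing between the arms. The median of all genes, 0.17 in the results, was 0.011 with TMM factors, -0.018 with DESeq2 size factors, -0.025 with the total of the tested genes, -0.12 without Rpl19 and -0.72 with the authors' factor. The cause of the shifts was not tested. With the mouse number as a replicate block, 12 genes were higher and 9 lower, Itgb7 and Retnla lost their calls, and the sign turned for Arg1 0.43, Ccr9 0.21 and Nfkb1 0.14. The labels give same-numbered mice nothing in common beyond the number, though mice 3 and 4 of every group share the lane step: deviations of same-numbered day 5 and day 1 mice correlated at 0.012, 0.275, 0.188 and 0.348 over the genes, and day 5 mouse 1 correlated best with day 1 mouse 2 (0.423). Levels near background, such as Ly6c1 and Il6 on day 5, limit the size of their changes, and 4 and 5 mice limit what could be detected.

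The genes that follow changed sign under an alternative. All but Retnla had not passed the threshold, and all values are log2 changes, day 5 minus day 1. With DESeq2 size factors, the sign turned for Arg1 0.016, Ccl7 -0.018, Cd68 -0.031, Cxcl11 -0.088, Tgfb1 -0.20 and Tlr2 -0.068. With TMM factors, the sign turned for Tgfb1 -0.20 and Tlr2 -0.092. With the authors' factor, the sign turned for Ccl7 -0.76, Cd68 -0.85, Cd86 -0.34, Cxcl11 -0.57, Fcgr1 -0.22, Il10ra -0.45, Irf4 -0.0033, Spi1 -0.40, Stat6 -0.48, Tgfb1 -0.72, Tlr1 -0.33, Tlr2 -0.80, Tlr8 -0.028 and Tnf -0.11. With background subtracted, the sign turned for Tlr2 -0.10. With the lanes of mice 3 and 4 as a term, the sign turned for Arg1 0.27 and Ccr9 0.11. On log2 scaled counts (limma and the exact permutation test), the sign turned for Arg1 1.33, Ccl7 -0.046, Cxcl1 0.0050 and Tgfb1 -0.0040. Within mice 3 and 4, the sign turned for Ccr7 -0.51, Ccr9 0.60, Cd68 -0.019, Cxcl10 -0.087, Irf5 0.22, Relb 0.38, Retnla -0.22, Tlr2 -0.50, Tlr4 0.83 and Tnf -0.86. Within the other mice, the sign turned for Arg1 3.61, Ccr2 0.045, Cd86 -0.73, Cxcl1 0.45, Cxcl11 -2.14, Il10ra -0.67, Il1a 0.22, Il23a 0.47, Nfkb1 0.27, Spi1 -0.015, Tgfb1 -0.19, Tlr1 -0.96 and Tlr8 -0.52. Scaled by the total of the tested genes, the sign turned for Ccl7 -0.012, Cd68 -0.018, Cxcl11 -0.058, Spi1 -0.025, Tgfb1 -0.25 and Tlr2 -0.26. Without Rpl19 in the scaling, the sign turned for Ccl7 -0.12, Cd68 -0.13, Cxcl11 -0.12, Spi1 -0.026, Tgfb1 -0.25 and Tlr2 -0.23. Omitting 1 mouse at a time turned the sign of 14 of these genes, with ranges of Ccr9 -0.30 to 0.28, Relb -0.58 to 0.080, Ccl7 -0.055 to 0.54, Cd68 -0.16 to 0.52, Cxcl11 -0.77 to 1.15, Nfkb1 -0.29 to 0.14, Tlr2 -0.20 to 0.24, Arg1 -0.41 to 0.89, Cxcl1 -0.24 to 0.20, Tgfb1 -0.13 to 0.14, Irf5 -0.41 to 0.032, Cd86 -0.12 to 0.86, Il10ra -0.17 to 0.73 and Tlr1 -0.16 to 0.89.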

Other observations

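Day 5 mouse 1 differed from the other day 5 mice in several genes of separate roles. It had the highest day 5 levels of Retnla (10423 scaled counts against 51.5 to 79.4), Ccr7 (11348 against 1391 to 3401), Ccl22 (5939 against 805 to 1239), Irf4 (8252 against 1589 to 3063), Il23a (1439 against 189 to 462) and Il6 (247 against 30.5 to 85.3). It had the lowest levels of Ccl2 (3408 against 11524 to 16692), Ccl7 (2646 against 21150.3 to 26728), Ccl8 (142 against 294 to 533), Fcgr1 (11700.3 against 39609 to 56039.7) and Cd68 (2377 against 7400.5 to 14981). Cd86 was lowest there too (5402 against 6981 to 38231). Itgax (2542.5 against 464 to 5659) and H2-Ab1 (170899 against 109924 to 181031) lay within the range of the other day 5 mice. Ccr7 and Irf4 are known from dendritic cells as well as macrophages, the sort on CD64 with low or intermediate CD11c is meant to leave dendritic cells out, Flt3 and Zbtb46 were blank in the deposited table, and the part of other cell types in this lane was not tested.

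Mice 3 and 4 of day 1 also stood apart from the other day 1 mice in genes without a called change. Vegfa was at 6293 and 7278 scaled counts against 195 to 2209.5, and Ccr2 at 38699 and 34876 against 4899 to 17652. Tlr4 was at 10557 and 11567, against 28470.1 to 45112.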
